A study of Homo sapiens with 9 samples.

Results

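This account follows 10 genes of the immediate early response and its feedback arm in human spinal cord organoids (SCOs): NAB1, NAB2, EGR4, IER2, IER3, IER5, ZFP36, NR4A1, NR4A2 and ARC. They were chosen by name, and all 10 were found among the 31589 genes listed in the deposited tables. Bulk RNA sequencing of poly-A RNA was carried out on 9 libraries, 3 for each of 3 conditions: vehicle, VPA and VPA + Rapamycin. VPA (valproic acid) is an anti-seizure drug that inhibits histone deacetylases, and Rapamycin inhibits the kinase mTOR. The vehicle libraries are titled FGF, the growth factor that supports proliferation in the culture, and per the study's text FGF was also present with VPA.

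All libraries come from whole organoids of the WTC line, an induced pluripotent stem cell line, and carry the genotype label WT. The labels give 96 h of treatment, whereas the study's text gives a shorter exposure and names different VPA doses in its results and its methods. The study describes clones C2, C36 and C40, each edited to carry a switch driven by SOX10, and a pool of several SCOs per sample. The sample descriptions carry the codes C4, C5 and C6, shared by replicates 1, 2 and 3 of every condition. Per the study's text, bulk RNA sequencing used SCOs of these 3 clones, and a heatmap legend gives each column as 1 clone. By that account each condition has 1 library per clone. The codes differ from the clone names, and no source used here links a code to a clone, a culture or a batch. The p-values therefore measure the spread between these libraries, whatever its source, and where the fit with the replicate number as a block changed a call it is given beside the result. Because whole organoids were sequenced, fewer cells of a type and less RNA per cell cannot be told apart.

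Immediate early genes are transcribed within minutes of a stimulus such as a growth factor, from promoters that are already poised, without need for new protein. Many encode transcription factors, among them the FOS, JUN, EGR and NR4A families. The pathway from RAF and MEK to ERK activates factors such as ELK1 bound with SRF, while CREB responds to cyclic AMP and calcium. The response is short-lived because some of its products shut it down: NAB1 and NAB2 bind EGR proteins and repress their targets, and ZFP36 binds AU-rich elements in messenger RNA and speeds its decay. In neurons the same response follows synaptic activity, with ARC as its best known readout.

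Total counts ran from 15290325 to 17417368 per library and overlapped among the conditions. A floor of 3 counts corresponds to 0.172 to 0.196 CPM (counts scaled to a library total of 1000000), and such floors cover counting error only. Over all genes, counts of the vehicle libraries differed most between replicates 1 and 3 (mean chi-square per gene 39.089). It was 13.487 between replicates 1 and 2 and 17.932 between 2 and 3. Vehicle replicate 3 was the highest or the lowest of them in the single markers that follow. In COL1A1, SOX10, DCX, TUBB3 and HOXB4, however, replicate 1 lay further from the other vehicle libraries. LUM was at 35.8 CPM against 4.85 and 4.41 CPM in the other vehicle libraries, and TFAP2A at 9.53 against 0.592 and 1.78 CPM. The more abundant COL1A1 was lowest there (72.0 against 199.7 and 102.3 CPM), as was SOX10 (14.2 against 20.5 and 16.3 CPM), and its sum of mesenchymal markers lay between those of the other vehicle libraries. The neuronal markers STMN2 (717.5 against 407.1 and 544.9 CPM), DCX (391.3 against 219.5 and 323.9 CPM), ELAVL3 and TUBB3 were highest there among the vehicle libraries. HOXC6 (38.6 against 83.2 and 83.4 CPM), HOXB8, HOXB4 and HOXC9 were lowest there. These genes were singled out after their values were seen. Neural progenitor markers (SOX2, SOX1, NES, PAX6 and HES5) summed to 1681.7 to 1858.6 CPM in vehicle, 2045.7 to 2247.9 CPM with VPA and 1788.0 to 1950.5 CPM with VPA + Rapamycin. Of these, HES5 alone was called with VPA (log2 fold change 0.95, edgeR adjusted p = 0.000114), and it fell when Rapamycin was added (-0.61, adjusted p = 0.000444). The HOX genes of the caudal neural tube summed to 175.3 to 288.2, 117.2 to 126.9 and 142.4 to 177.5 CPM in the same order. Immune markers summed to at most 0.466 CPM, with PTPRC not listed in the tables used here.

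The sequence before the start of IER2 and ZFP36 is printed first, because both genes rose with VPA and fell when Rapamycin was added, and because short control motifs in this stretch are how immediate early genes are usually described. RefSeq promoter entries (GRCh38.p14) were found for 7 of the 10 genes, with no entry for IER3, NR4A2 and ARC. The 250 bases before each start were searched on both strands for the cyclic AMP response element TGACGTCA and its core TGACG, the AP-1 site TGANTCA, the EGR site GCGNGGGCG, the NR4A site AAAGGTCA, the TATA box TATAAA, the GC box GGGCGG, which can overlap the EGR site, and the CArG box that SRF binds. Capitals mark the GC box and the core TGACG, read on either strand. The ZFP36 stretch ends just before the annotated gene. Both are on the plus strand.
IER2, chr19:13150161-13150410: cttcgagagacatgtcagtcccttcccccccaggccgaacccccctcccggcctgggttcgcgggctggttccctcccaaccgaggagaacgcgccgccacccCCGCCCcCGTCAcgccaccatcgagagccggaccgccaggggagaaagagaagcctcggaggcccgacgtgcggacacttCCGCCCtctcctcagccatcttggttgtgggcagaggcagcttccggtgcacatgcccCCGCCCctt
ZFP36, chr19:39406597-39406812: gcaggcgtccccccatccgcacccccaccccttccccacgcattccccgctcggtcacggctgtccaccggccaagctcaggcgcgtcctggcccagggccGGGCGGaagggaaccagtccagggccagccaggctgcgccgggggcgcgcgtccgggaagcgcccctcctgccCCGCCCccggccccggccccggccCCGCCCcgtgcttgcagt

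Both windows held 3 GC boxes, a motif present in 42.6% of all 35116 promoter windows of the same length. IER2 also held 1 core TGACG, which 21.2% of windows hold. EGR4 held 2 such cores and IER5 held none of the motifs. No window of these 7 genes held the full cyclic AMP response element (1.65% of all windows), the AP-1 site (6.57%), the NR4A site (1.05%), the TATA box (10.7%) or the CArG box (1.16%). This says only that these letters were not in the windows searched. The letters TATATAAG, close to TATAAA but not searched for, stand in the windows of EGR4 and IER5.

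The EGR site was found in the windows of NAB1 and NAB2 alone among the 7, and in 8.41% of all windows. It is shown because the NAB proteins are the partners of EGR factors. In 2 of the 3 NAB1 entries it was present: it overlapped itself once on the minus strand and occurred again on the plus strand. In NAB2 it lay 62 to 54 bases before the RefSeq start. The gene coordinates used for counting begin earlier, at 190646746 for NAB1 and 57088894 for NAB2, so the sites printed here lie inside both annotated genes. Capitals mark the EGR site on the plus strand of the genome.
NAB1, chr2:190648846-190648875: cagcggcCGCCCCCGCCCCCGCccggcggc
NAB1, chr2:190648898-190648927: actcggccgcGCGTGGGCGggagccggagc
NAB2, chr12:57089042-57089071: tgtgcgtcctGCGGGGGCGgaggcgcggag

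IER2, ZFP36 and ARC, 3 of the 10 genes, rose with VPA against vehicle, and none fell. Of all genes tested in that comparison, 16.4% were called higher and 15.7% lower. With Rapamycin added to VPA, IER2, ZFP36, ARC and NR4A1 fell against VPA alone, 4 of the 10 genes, and none rose, where 3.73% of all genes tested were called lower and 3.01% higher. Against vehicle, VPA + Rapamycin left 1 gene lower, NR4A1, and none higher, beside 9.22% and 9.81% of all genes tested. These calls are adjusted p-values of at most 0.05 in edgeR's quasi-likelihood test with Benjamini-Hochberg adjustment over all genes, of which 17360, 17317 and 17383 passed the filter on low counts in the 3 comparisons. Of the 10 genes 8, 9 and 8 passed it: EGR4 never did, and NR4A2 did only in VPA + Rapamycin against VPA. The comparisons share libraries, since the VPA libraries enter both the first and the second, so a rise in the first and a fall in the second are not separate observations. An exact permutation test of 3 libraries against 3 cannot give a two-sided p under 0.1.

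The nuclear protein IER2, induced by growth factors, is encoded at chr19:13150415-13154908 on the plus strand, just downstream of the sequence printed above. It stood at 33.9, 26.4 and 22.2 CPM in vehicle replicates 1 to 3, at 55.9, 48.4 and 63.8 CPM with VPA, and at 30.6, 28.2 and 26.2 CPM with VPA + Rapamycin. All VPA libraries lay above all others, and the libraries of vehicle and VPA + Rapamycin overlapped. The rise with VPA was 2.02-fold (log2 fold change 1.02, SE 0.165, edgeR quasi-likelihood test, Benjamini-Hochberg adjusted p = 0.00108), seen in 3 of 3 libraries. Without vehicle replicate 3 the log2 fold change was 0.89. Rapamycin lowered it against VPA by a factor of 1.97 (log2 fold change -0.98, SE 0.108, edgeR adjusted p = 2.66e-05). VPA + Rapamycin differed from vehicle by 0.04 on the log2 scale, with a 95% interval from -0.32 to 0.39, so a change of either sign within this range cannot be told from none.

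Tristetraprolin, the product of ZFP36 (chr19:39406813-39409412, plus strand), is the RNA decay factor among the feedback genes. ZFP36 was a low transcript, with 42, 39 and 26 reads in vehicle, 119, 68 and 125 with VPA and 31, 27 and 22 with VPA + Rapamycin. In CPM this gave 2.22 ± 0.531 in vehicle, 6.13 ± 1.68 with VPA and 1.6 ± 0.23 with VPA + Rapamycin (SD, n = 3 each). The VPA libraries did not overlap the others, although VPA replicate 2 lay well below the other VPA libraries. ZFP36 showed the largest of the 3 rises, 2.74-fold (log2 fold change 1.46, SE 0.306, edgeR adjusted p = 0.00455), and a log2 fold change of 1.27 without vehicle replicate 3. The fall with Rapamycin was 3.81-fold (log2 fold change -1.93, SE 0.283, edgeR adjusted p = 0.000488). Against vehicle, VPA + Rapamycin gave -0.48 with an interval from -1.24 to 0.28.

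ARC encodes a capsid-like protein that acts at synapses and is one of the immediate early genes of active neurons. Its level was 5.32, 4.87 and 4.46 CPM in vehicle, 9.92, 8.02 and 10.4 CPM with VPA and 2.62, 3.03 and 3.21 CPM with VPA + Rapamycin. The 3 conditions did not overlap, and all VPA + Rapamycin libraries lay below all vehicle libraries. ARC rose 1.92-fold with VPA (log2 fold change 0.94, SE 0.205, edgeR adjusted p = 0.00552; 0.88 without vehicle replicate 3). It fell 3.19-fold when Rapamycin was added (log2 fold change -1.67, SE 0.208, edgeR adjusted p = 9.86e-05). The comparison of VPA + Rapamycin with vehicle did not pass the threshold in the 6 libraries (log2 fold change -0.73, SE 0.244, edgeR adjusted p = 0.0578). It passed without vehicle replicate 3 (-0.79, adjusted p = 0.0493) and in 1 fit of all 9 libraries (-0.74, adjusted p = 0.0202).

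The orphan nuclear receptor NR4A1 (chr12:52022832-52059507, plus strand) differed from these 3 genes in its values. It stood at 30.5, 25.6 and 21.9 CPM in vehicle, at 32.0, 25.8 and 38.9 CPM with VPA, and at 12.4, 15.2 and 11.5 CPM with VPA + Rapamycin. Vehicle and VPA overlapped, and VPA + Rapamycin lay below both. The difference with VPA did not pass the threshold (log2 fold change 0.30, 95% interval -0.08 to 0.68, edgeR adjusted p = 0.206). Leaving out 1 library moved it between 0.146 (without VPA replicate 3) and 0.441 (without VPA replicate 2), and the lowest adjusted p was 0.0619 (without vehicle replicate 1). VPA + Rapamycin was lower than VPA by a factor of 2.47 (log2 fold change -1.30, SE 0.147, edgeR adjusted p = 3.06e-05). It was also lower than vehicle (log2 fold change -1.003, SE 0.172, edgeR adjusted p = 0.00358; -1.11 without vehicle replicate 3), at 50.2% of the vehicle mean. A long non-coding RNA, AC025259.3, lies on the opposite strand inside NR4A1 over 1045 bases. It had 0, 0 and 4 reads in vehicle, 15, 5 and 22 with VPA and 0, 0 and 0 with VPA + Rapamycin, against 183 to 685 reads of NR4A1. The use of the strand in counting is not given in the sources used here, so reads of this pair may not be separated.

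NR4A2, a receptor of the same family needed for midbrain dopamine neurons, was close to the counting floor. It had 8, 1 and 8 reads in vehicle, 9, 18 and 17 with VPA and 7, 29 and 10 with VPA + Rapamycin. All VPA libraries were above all vehicle libraries, and VPA + Rapamycin overlapped both. It passed the filter on low counts only between VPA + Rapamycin and VPA (log2 fold change 0.08, 95% interval -1.07 to 1.23, edgeR adjusted p = 0.958), an interval that spans more than a doubling in either direction. Without the filter, edgeR gave a log2 fold change of 1.31 with VPA against vehicle (SE 0.693, adjusted p = 0.198) and 1.37 with VPA + Rapamycin against vehicle (SE 0.702, adjusted p = 0.226). NR4A3, the remaining receptor of the family, did not pass the threshold in any comparison (5.38 ± 1.78, 5.4 ± 1.31 and 5.79 ± 1.67 CPM in vehicle, VPA and VPA + Rapamycin). 

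**Figure D1:**
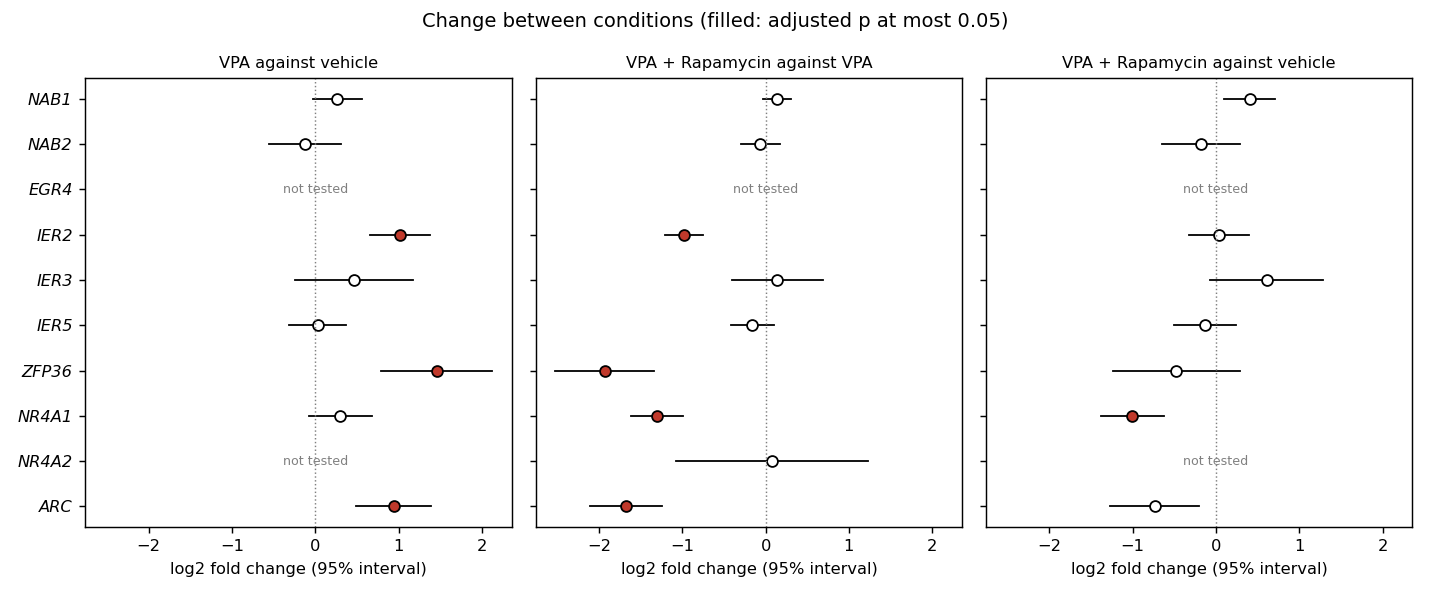
Log2 fold change of each gene in the 3 comparisons (horizontal axis), with its 95% interval as a line. Filled points have an edgeR adjusted p of at most 0.05, and genes under the count filter are written as not tested. IER2, ZFP36 and ARC are filled to the right in the first panel, these and NR4A1 to the left in the second, and NR4A1 alone in the third.

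EGR4, the zinc finger factor that is the least expressed of its family here, was read only with VPA. It had 0, 0 and 0 reads in vehicle, 1, 4 and 4 with VPA and 0, 0 and 0 with VPA + Rapamycin. With the floor of 3 counts set over each group in place of 0, the 9 reads under VPA gave a ratio of 2.86 over vehicle and 2.96 over VPA + Rapamycin. These ratios take the 9 reads as exact and are not lower bounds. Without a filter on low counts, edgeR's adjusted p was 0.152 and 0.291 for these comparisons. Its relatives were far more abundant and passed the test. EGR1 rose from 108.4 ± 24.1 to 1259.3 ± 177.9 CPM with VPA and stood at 197.7 ± 20.8 CPM with VPA + Rapamycin (SD, n = 3 each). EGR2 rose with a log2 fold change of 4.96 and EGR3 with 5.30, and both fell with Rapamycin (log2 fold changes -4.61 and -4.24).

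The corepressor genes NAB1 and NAB2, whose promoter windows hold the EGR site printed above, were not called in any comparison. NAB1 (chr2:190646746-190692766, plus strand) stood at 58.3, 62.5 and 80.5 CPM in vehicle, at 80.8, 86.1 and 77.0 CPM with VPA, and at 92.1, 81.0 and 95.3 CPM with VPA + Rapamycin. Vehicle replicate 3 reached the levels of the treated libraries, so that vehicle and VPA overlapped, whereas the lowest VPA + Rapamycin library lay just above the highest vehicle library. The log2 fold change was 0.27 with VPA (95% interval -0.03 to 0.56, edgeR adjusted p = 0.153) and 0.41 with VPA + Rapamycin against vehicle (0.10 to 0.71, adjusted p = 0.0651). Without vehicle replicate 3 these became 0.42 (edgeR adjusted p = 0.00449) and 0.56 (adjusted p = 0.00296), and the second passed the threshold in 6 of 11 alternatives, the replicate block among them (0.42, adjusted p = 0.0238). Over all libraries left out in turn the values ran from 0.174 to 0.424 and from 0.309 to 0.561. Between VPA + Rapamycin and VPA it was 0.14 (-0.03 to 0.31). With either treatment 3 of 3 libraries lay above the vehicle mean.

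NAB2 (chr12:57088894-57095476, plus strand) is known as a target of EGR1 that in turn limits it. It stood at 59.8, 40.2 and 31.3 CPM in vehicle, at 37.7, 39.5 and 44.5 CPM with VPA, and at 32.2, 44.0 and 40.3 CPM with VPA + Rapamycin. The vehicle libraries alone spanned the range of the treated ones. The log2 fold change was -0.12 with VPA (95% interval -0.55 to 0.31, edgeR adjusted p = 0.681). Without vehicle replicate 1, the highest vehicle library, it was 0.175 (SE 0.137, edgeR adjusted p = 0.341), so the interval does not set a firm bound on a rise. Between VPA + Rapamycin and VPA the log2 fold change was -0.06 (-0.30 to 0.17), and against vehicle it was -0.18 (-0.65 to 0.28). Its end overlaps STAT6, on the opposite strand, by 69 bases. STAT6, with a mean count of 35.0% of NAB2's, rose with VPA (log2 fold change 0.69, edgeR adjusted p = 0.0248).

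Neither IER5 nor IER3 was called in any comparison, and their difference from IER2 was not tested. IER5, a nuclear protein that acts with the heat shock factor HSF1, stood at 34.5, 25.4 and 24.8 CPM in vehicle, at 27.2, 27.2 and 32.6 CPM with VPA, and at 24.3, 30.6 and 23.0 CPM with VPA + Rapamycin. The conditions overlapped throughout. The log2 fold change was 0.03 with VPA (95% interval -0.31 to 0.37, edgeR adjusted p = 0.909), -0.16 between VPA + Rapamycin and VPA (-0.41 to 0.10) and -0.13 against vehicle (-0.50 to 0.24). IER5L, its relative in sequence, fell with VPA from 40.1 ± 5.06 to 17.4 ± 3.25 CPM (log2 fold change -1.22, edgeR adjusted p = 0.000312). It stayed at 17.7 ± 3.67 CPM with VPA + Rapamycin (SD, n = 3 each; against VPA 0.03, edgeR adjusted p = 0.942).

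IER3, a stress-induced regulator of cell survival, was low, with 41, 29 and 58 reads in vehicle, 55, 76 and 55 with VPA and 56, 70 and 76 with VPA + Rapamycin. The libraries overlapped in each comparison. Its log2 fold change was 0.47 with VPA (95% interval -0.24 to 1.18, edgeR adjusted p = 0.292), 0.61 with VPA + Rapamycin against vehicle (-0.07 to 1.29, adjusted p = 0.194) and 0.14 between the treatments (-0.40 to 0.68). Leaving out 1 library gave 0.269 (without VPA replicate 2) to 0.76 (without vehicle replicate 3) with VPA, and 0.422 to 0.895 with VPA + Rapamycin against vehicle, the highest without vehicle replicate 3 (edgeR adjusted p = 0.0581). At this depth a doubling with VPA lay within the interval.

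The relatives of ZFP36, which share its binding to AU-rich elements, had higher counts and smaller differences. ZFP36L1 stood at 504.1 ± 49.7 CPM in vehicle, 470.8 ± 17.4 CPM with VPA and 369.2 ± 9.57 CPM with VPA + Rapamycin. It fell in VPA + Rapamycin against VPA (log2 fold change -0.35, edgeR adjusted p = 0.00497) and against vehicle (-0.46, adjusted p = 0.0128), and gave -0.11 with VPA (adjusted p = 0.427). ZFP36L2 fell only against vehicle with VPA + Rapamycin (-0.37, edgeR adjusted p = 0.0359), with -0.26 (adjusted p = 0.0748) for VPA. Of the 7 relatives examined, 3 rose and 1 fell with VPA, beside 16.4% and 15.7% of all genes tested. With Rapamycin against VPA 4 fell, beside 3.73% of all genes tested.

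Levels of different genes were compared as CPM per kilobase of the deposited gene length. That is 1 length per gene, from 1356 bases for IER3 to 7295 bases for NR4A1. Which transcripts were present was not examined, so the order between genes rests on these lengths. In vehicle the order began with NAB2 (14.5 ± 4.85), NAB1 (13.7 ± 2.42), IER2 (8.95 ± 1.93), IER5 (6.75 ± 1.3) and NR4A1 (3.57 ± 0.593). IER3 (1.95 ± 0.635), ARC (1.63 ± 0.145), ZFP36 (1.1 ± 0.264), NR4A2 (0.0869 ± 0.0609) and EGR4 (0) followed (SD, n = 3 each). NAB2 and NAB1 overlapped, as did IER2 with IER5 and with NAB2, and IER3 with ARC, while NR4A1 stood apart from IER5 above it and IER3 under it.

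With VPA, IER2 headed the order at 18.2 ± 2.51 CPM per kilobase, overlapping NAB1 at 16.6 ± 0.94. ARC and ZFP36, at 3.16 ± 0.42 and 3.05 ± 0.836, overlapped each other and IER3 at 2.73 ± 0.634. With VPA + Rapamycin NAB1 (18.3 ± 1.53) and NAB2 (12.9 ± 2.0) headed it, IER2 was back in the third place at 9.23 ± 0.719, and NR4A1 lay under IER3 (1.79 ± 0.262 against 3.0 ± 0.538).

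The genes whose pattern over the 9 libraries was closest to the 3 that rose were found by the root-mean-square difference of centred log2 CPM among 15929 genes with a mean of at least 1 CPM. The nearest to IER2 were CRACR2A (0.171), MT-TD (0.177) and SHMT2 (0.18). Those nearest to ZFP36 were CYR61 (0.217), CD70 (0.354) and CLRN1 (0.398). ARC lay nearest to JUN (0.193), ACTC1 (0.286) and HES1 (0.29). Among the 3 genes themselves the difference was 0.305 between ZFP36 and ARC, 0.374 between IER2 and ARC and 0.396 between IER2 and ZFP36. JUN, with a mean of 93.9 CPM in vehicle, 186.0 with VPA and 69.9 with VPA + Rapamycin, is an AP-1 subunit of the immediate early response.

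A list of 40 other immediate early genes gives the setting. Of 38 tested with VPA against vehicle, 13 rose, 8 fell and 17 were not called, with a median log2 fold change of 0.24 beside 0.00 for all genes. Of all genes tested there, 16.4% rose and 15.7% fell. FOS (log2 fold change 3.43) and FOSB (3.66), subunits of AP-1, CYR61 (1.79), a matricellular protein, and JUNB (2.43) rose with the smallest p. PLK3 (-0.84), PPP1R15A (-0.72), DUSP4 (-0.51) and DUSP6 (-0.53), of which the DUSP genes encode phosphatases that switch off ERK, fell. Of 37 tested between VPA + Rapamycin and VPA, none rose and 13 fell, beside 3.01% and 3.73% of all genes tested. The median was -0.32, and FOS (-3.70), JUNB (-2.84), CYR61 (-2.19) and FOSB (-5.19) led those that fell. Against vehicle with VPA + Rapamycin 3 rose and 11 fell, beside 9.81% and 9.22% of all genes tested. KLF10 (0.99), VGF (1.51) and BDNF (3.09) rose, and PLK2 (-1.11), BTG2 (-0.66), KLF6 (-0.84) and PLK3 (-0.66) led those that fell, in the direction in which NR4A1 changed.

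Of 21 kinases and factors that act upstream of these genes, all were tested. With VPA 3 rose and 6 fell, beside 16.4% and 15.7% of all genes tested. ELK3 (log2 fold change 0.94) and SRF (0.45) led those that rose, and ELK4 (-1.44) and CRTC1, a coactivator of CREB (-0.77), led those that fell. SRF was the 1 gene of the list called between VPA + Rapamycin and VPA, beside 3.73% of all genes tested called lower. It fell there by 0.46 on the log2 scale (edgeR adjusted p = 0.00516). Its mean was 53.7 ± 9.28 CPM in vehicle, 74.0 ± 7.63 CPM with VPA and 53.7 ± 4.06 CPM with VPA + Rapamycin. Against vehicle VPA + Rapamycin left 1 higher, ELK3 (0.68), and 4 lower, among them ELK4 (-1.37) and CRTC1 (-0.60). Of all genes tested there, 9.81% were higher and 9.22% lower.

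Immediate early genes also respond to handling, and markers of other cell types moved with some of these genes. Of 9 heat shock genes, HSPA8, HSPB1, HSPE1 and BAG3 rose with VPA and none fell, beside 16.4% and 15.7% of all genes tested. The others were not called: HSPA1B (log2 fold change -0.63), HSPA1A (-0.41), DNAJB1 (-0.03), HSPH1 (0.22) and HSPD1 (0.225). The summed level of the 9 was 1311.5 to 1591.2 CPM in vehicle, 1725.5 to 1821.5 CPM with VPA and 1534.9 to 1607.9 CPM with VPA + Rapamycin. HSPA8 was the largest part of it, at 677.9 ± 56.4 CPM in vehicle and 896.0 ± 22.4 CPM with VPA. The sums of the heat shock genes and of the neural progenitor markers were highest with VPA, like IER2, ZFP36 and ARC. So was the sum of the 6 mesenchymal markers, at 136.2 to 291.2 CPM in vehicle, 556.1 to 711.0 CPM with VPA and 242.8 to 368.1 CPM with VPA + Rapamycin. That sum was mostly COL1A1 and COL1A2, at 270.2 ± 41.6 and 319.5 ± 39.0 CPM with VPA. With VPA these 2 of the 6 rose, beside 16.4% of all genes tested, and COL3A1 (log2 fold change -0.49), PRRX1 (-0.43), LUM (0.41) and TWIST1 (0.65) were not called. When Rapamycin was added 5 of 6 fell, beside 3.73% of all genes tested. The 3 neural crest markers summed to 25.2 to 34.1, 2.99 to 4.66 and 6.6 to 13.9 CPM, and the 4 neuronal markers to 732.1 to 1239.2, 636.2 to 709.8 and 654.7 to 688.1 CPM. The share of counts on mitochondrial genes was 5.28% to 6.72% in vehicle, 6.79% to 7.20% with VPA and 5.14% to 7.41% with VPA + Rapamycin. The part of these in the changes of IER2, ZFP36, ARC and NR4A1 was not tested.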

How the data were processed

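Poly-A RNA of 9 SCO libraries was sequenced, and 1 table per pair of conditions was deposited. The deposited counts are reads per gene on GRCh38, not normalized, which the authors made with the alignment and counting tools named in the submitters' processing notes (HISAT2 2.0.5 and featureCounts 1.5.0-p3). The use of the strand is not given in the sources used here. Each table lists genes with at least 2 reads over its 6 libraries. The authors' 36 per-sample columns of normalized counts and FPKM were not used, nor were their columns of fold changes and p-values. Of the coordinates, 99.8% were identical to GENCODE 29.

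Counts were fitted in R 4.3.3 with edgeR 4.0.16 within each table (TMM, filterByExpr, quasi-likelihood test, Benjamini-Hochberg adjustment over all genes tested, threshold 0.05, no minimum fold change and no replicate block). Intervals and SEs come from that fit. Levels are CPM with TMM factors over the 9 libraries, whose totals ran from 15290325 to 17417368. Exact permutation tests of the means are two-sided. Alternatives were DESeq2 1.42.0, upper-quartile normalization, no filter, 1 fit of all 9 libraries, the replicate number as a block, and leaving out each library. The script was tested on simulated data. The members and lists were chosen with earlier results of these data known. The text names all 10 members, 7 relatives, the 4 genes per direction with the smallest p among other immediate early genes (2 among upstream factors), the 3 genes nearest in pattern to each member that VPA changed, and genes that overlap a member and bear on its counts. In the upstream list, 2 older symbols were matched through RefSeq synonyms.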

Additional observations from a re-analysis of the deposited data

How the results depend on the processing

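The 8 calls of the members (IER2, ZFP36 and ARC with VPA, these and NR4A1 in VPA + Rapamycin against VPA, and NR4A1 against vehicle) passed the threshold in all 11 alternatives run for each, 88 values in all. The count called higher in VPA + Rapamycin against vehicle was 1 in place of 0, NAB1, under DESeq2 (adjusted p = 0.0485), upper-quartile normalization (0.0438), no filter (0.0283), 1 fit of all 9 libraries (0.0283) and without vehicle replicate 3. The count called lower was 2 in place of 1 in the fit of all 9 libraries, with ARC added. Leaving out 1 library at a time gave 3 to 4 genes higher with VPA, 4 lower in VPA + Rapamycin against VPA, and 0 to 1 higher and 1 to 2 lower against vehicle; vehicle replicate 3 was the library behind each change. The cause was not tested.

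Signs turned only for values that had not passed the threshold. Leaving out 1 library at a time, the log2 fold change with VPA ranged from -0.306 to 0.175 for NAB2 (positive without vehicle replicate 1) and from -0.062 to 0.199 for IER5 (negative without vehicle replicates 2 or 3 or VPA replicate 3). In VPA + Rapamycin against VPA it ranged from -0.163 to 0.056 for NAB2 (positive without VPA replicate 3 or VPA + Rapamycin replicate 1) and from -0.73 to 0.42 for NR4A2 (negative without VPA replicate 1 or VPA + Rapamycin replicate 2). Against vehicle it ranged from -0.372 to 0.108 for NAB2 and from -0.262 to 0.036 for IER5 (both positive without vehicle replicate 1), and from -0.095 to 0.21 for IER2 (negative without vehicle replicate 3 or VPA + Rapamycin replicate 1).

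Correlations of same-numbered libraries ran from -0.06 to 0.159, and were 0.095, 0.063 and 0.159 between VPA + Rapamycin and vehicle. Not every pair was above 0.1, the limit set for taking the numbers, or the codes C4, C5 and C6, as pairs. The main fit has no block. Low correlations over 3 libraries cannot show that the samples are unpaired, so the fit with the block is given as well. With the replicate block, NAB1 was called against vehicle (1 gene higher, log2 fold change 0.42, edgeR adjusted p = 0.0238), NR4A2 turned to -0.05 in VPA + Rapamycin against VPA, and the calls over all genes went from 5568 to 4965, from 1168 to 1244 and from 3307 to 4040. The fit of all 9 libraries called 113 genes between VPA + Rapamycin and VPA in place of 1168, the 4 members among them. Depth limits EGR4 and NR4A2, which had at most 4 and 29 reads in a library.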
